A study of Bos taurus with 20 samples.

Results

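Triglyceride, the storage form of fat, is made by joining a last fatty acid to diacylglycerol, and the enzymes DGAT1 and DGAT2 catalyse this last step. The product is kept in lipid droplets, which are coated by perilipins (PLIN1 and PLIN2) and enlarged by proteins of the CIDE family (CIDEA and CIDEC). The fatty acids are made by FASN and desaturated by SCD, and in muscle the droplets lie both in the fibres and in adipocytes between them, which also express the fatty acid carrier FABP4 and the hormone ADIPOQ. The 10 genes DGAT1, DGAT2, CIDEA, CIDEC, PLIN1, PLIN2, FABP4, SCD, FASN and ADIPOQ were taken from 14919 genes named on the array, by symbol or by an older name of the same gene. PLIN2 is named ADFP in the files, CIDEA, CIDEC and PLIN1 carry a gene number only, and ADIPOQ was found by the symbol in its description. They had 18 of 21475 probes, of which 14 were tested among 15430 tested probes, at least 1 for each gene.

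Expression was measured on 20 single-colour arrays of bovine neck muscle, taken at a slaughterhouse from 10 cows. The 5 control cows (K3, K6, K8, K9 and K10) are labelled control. The 5 treated cows (DE27, DE29, DE30, DE31 and DE32) had received dexamethasone, a synthetic glucocorticoid, at 0.4 mg per animal per day by mouth for 31 days. They had also received the oestrogen estradiol, injected into muscle 6 times at a weekly dose of 5 mg. Muscle of every cow was kept under vacuum at 4 °C and sampled at day 0 and at day 14, which gave 4 groups of 5 arrays. Both agents were always given together, so their effects cannot be told apart. The 10 genes were chosen by measured values: DGAT2 and CIDEA for their higher signal in treated cows at day 0 and over both days, and the others as genes of the same process. Treatment differences of the 10 genes are therefore given as a description with no p-value, at day 14 too, since the day 14 arrays enter the mean over both days. Counts of members past the threshold stand beside those differences only with the share of all probes. Storage was tested.

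The samples carried muscle RNA: of 13 skeletal muscle fibre markers, 11 were on the array, all 11 were tested, and none lacked signal above background in any group. The mean log2 signal of this list was between 16.11 and 16.55 in the 4 groups. The 75th percentile of signal per array was 654 to 945 at day 0 and 274 to 533 at day 14, so dim probes were measured less well after storage. The lowest value, 274, was that of control cow K6 at day 14. Values below are log2 normalised signals, which compare samples for 1 gene and not genes with each other. The number of cows, 5 per group, limits the precision.

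**Figure D1:**
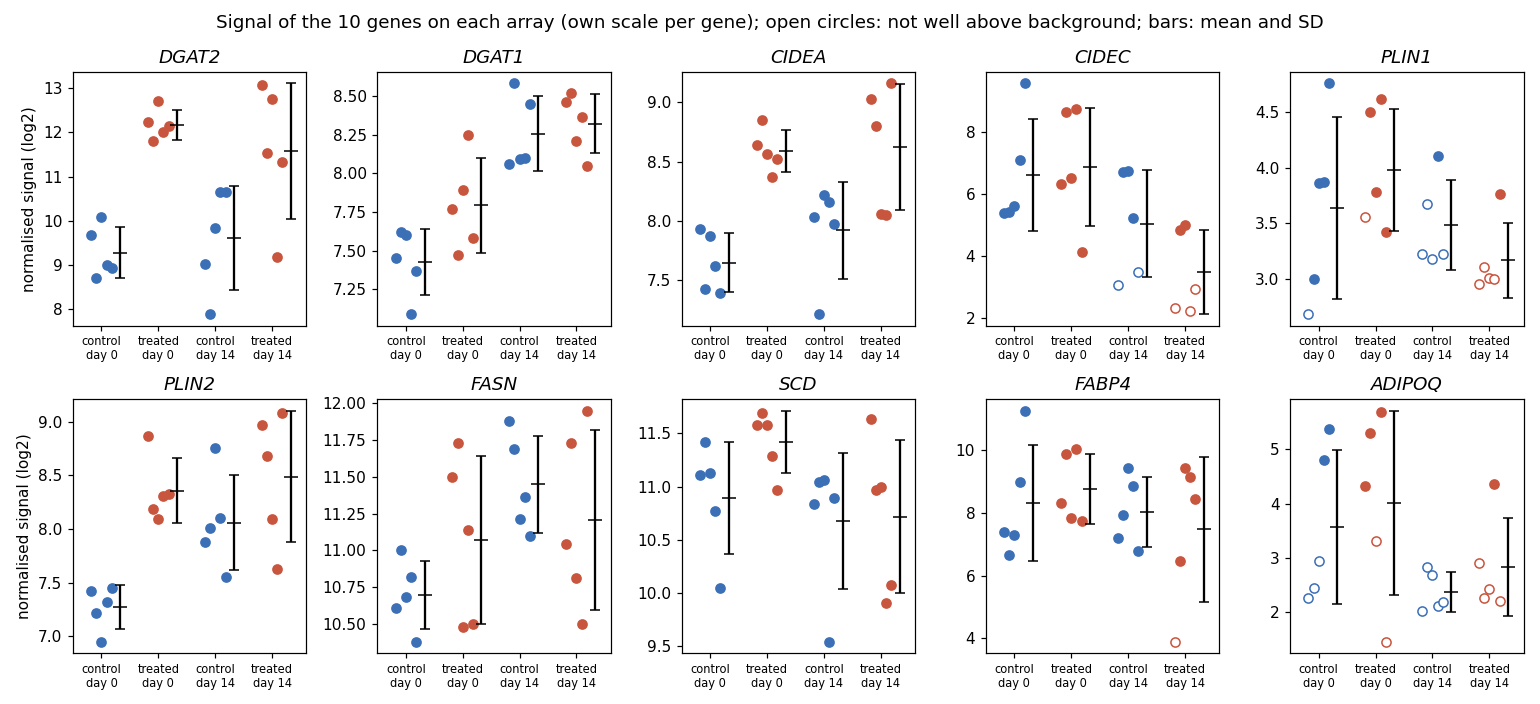
Log2 normalised signal of each of the 10 genes on every array, with the mean and SD (n = 5) beside each group and an own vertical scale per gene. For DGAT2, CIDEA and PLIN2 the treated day 0 points lie above all control day 0 points, whereas CIDEC, FABP4 and ADIPOQ spread widely within each group.

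DGAT2, the diacylglycerol acyltransferase that is most tied to newly made fatty acids, had the largest treatment difference of the 10 genes at day 0. Its signal in control cows K3, K6, K8, K9 and K10 was 9.67, 8.71, 10.09, 8.99 and 8.93. In treated cows DE27, DE29, DE30, DE31 and DE32 it was 12.23, 11.81, 12.72, 12.00 and 12.14. All treated cows lay above all control cows, and the lowest treated value was far above the highest control value. The difference was 2.90 ± 0.28 (SE), or 7.46-fold, with means of 12.18 ± 0.34 (SD, n = 5) and 9.28 ± 0.58. Within slides 1, 3 and 6, the slides that held both treatments at day 0, it was 2.62, 2.82 and 3.29.

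DGAT1, the other enzyme of the same step, differed much less. At day 0 its control signals were 7.45, 7.62, 7.60, 7.09 and 7.37. The treated signals were 7.77, 7.47, 7.89, 8.25 and 7.58, and the groups overlapped. Its difference of 0.37 ± 0.18 was a small part of that of DGAT2. Means were 7.79 ± 0.30 (SD, n = 5) in treated and 7.43 ± 0.21 in control cows.

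PLIN2 and CIDEA, both droplet proteins, were the other members whose groups did not overlap at day 0. PLIN2, the perilipin that coats droplets in most cell types, read 7.42, 7.22, 6.95, 7.32 and 7.45 in control cows. Treated cows read 8.87, 8.19, 8.09, 8.31 and 8.33, all above the controls, with DE27 the highest. The difference was 1.09 ± 0.17, or 2.12-fold. CIDEA, which promotes fusion and growth of droplets, read 7.93, 7.42, 7.87, 7.62 and 7.39 in control cows. Its treated values of 8.64, 8.85, 8.56, 8.37 and 8.52 again all lay above the controls. That difference was 0.94 ± 0.16, or 1.92-fold, and within slides 1, 3 and 6 it was 1.18, 0.72 and 1.26. For PLIN2 the same slides gave 0.87, 1.07 and 1.42.

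The remaining 7 members had small or poorly defined day 0 differences. SCD, the desaturase that makes monounsaturated fatty acids, had 0.53 ± 0.25, and FASN, the fatty acid synthase, had 0.37 ± 0.26. FABP4 (0.45 ± 0.84), ADIPOQ (0.45 ± 0.85), PLIN1 (0.34 ± 0.39) and CIDEC (0.25 ± 1.01) had standard errors larger than their differences. All 10 differences were above 0, with a median of 0.45 against -0.01 for all tested probes. In limma with Benjamini-Hochberg adjustment over all probes, DGAT2, PLIN2 and CIDEA, 3 of the 10 genes, were among the probes past the threshold, all higher, against 2.45% of all probes in either direction and 1.32% higher. The same 3 did not overlap between groups, against 5.83% of all probes. Because this comparison chose the genes, nothing is read from these counts.

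**Figure D2:**
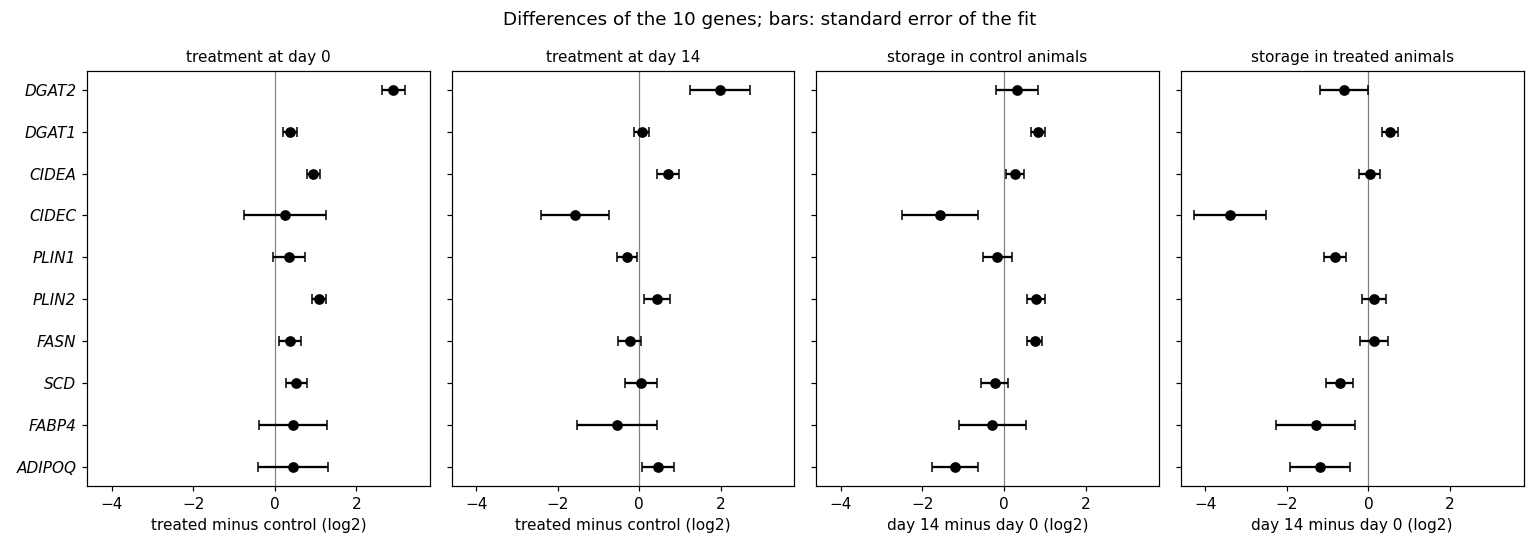
Difference of each gene on the log2 scale with its standard error, in 4 comparisons of 5 against 5 arrays. The DGAT2 difference between treated and control cows was 2.90 at day 0 and 1.98 at day 14 with a wider error, and storage values lay on either side of 0 depending on the gene.

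Other genes of the pathway were taken from lists of triglyceride synthesis, droplet, lipolysis, fatty acid synthesis, regulator, adipocyte and adipokine receptor genes, with 91 genes beside the 10 members and 73 of these tested. At day 0, 3 of the 73 rose and 1 fell, or 5.48% against the 2.45% of all probes. The lists were drawn up with earlier results of these data known, so nothing is read from that share. For the same reason the adjusted p-values that follow describe these genes and are no independent support. MLXIPL, a carbohydrate-responsive transcription factor that drives lipogenic genes, rose 2.91-fold (1.54 ± 0.24, limma adjusted p = 0.0134), and it passed without each cow in turn. AIFM2, an oxidoreductase found on lipid droplets, rose 2.01-fold (1.01 ± 0.18, limma adjusted p = 0.0181, and 0.0513 without K9). OXSM, of mitochondrial fatty acid synthesis, rose 1.58-fold (0.66 ± 0.13, limma adjusted p = 0.0283), and CEBPB, a transcription factor of early adipocyte formation, fell 2.14-fold (-1.10 ± 0.23, limma adjusted p = 0.0313). The OXSM call was lost without any 1 of 7 cows (limma adjusted p up to 0.0817), the CEBPB call without any 1 of 8 (up to 0.0892), and both with the slide as a block (0.072 and 0.071).

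In triglyceride synthesis 0 of 11 tested genes other than DGAT1 and DGAT2 passed at day 0, and in lipolysis 0 of 11. The list of triglyceride synthesis genes had a median difference of 0.35 over 13 genes, DGAT1 and DGAT2 included, against -0.01 for all tested probes. Adipocyte markers, a list that shares 4 tested genes with the members, had 0 of 14 past the threshold and 12 of 14 above 0 (median 0.29). Their mean log2 signal was 6.70 to 8.05 in control and 6.85 to 8.12 in treated cows at day 0. Leptin (LEP), an adipocyte hormone, was not above background on any array. CFD, LPL, LIPE, PNPLA2, GPD1 and AOC3 of the same list were well above background on every array. Whole muscle was measured, so fewer cells of a type and less RNA per cell cannot be told apart. The part that adipocyte content has in the DGAT2, CIDEA and PLIN2 differences was not tested; their correlations with FABP4 among cows are given next.

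FABP4 varied between cows more than between groups at day 0. Control cows read 7.41, 6.65, 7.30, 8.99 and 11.27, and treated cows 8.32, 9.89, 7.83, 10.05 and 7.76. K10, K9, DE29 and DE31 were high and the groups overlapped fully. CIDEC, which builds the large droplets of adipocytes, read 5.38, 5.40, 5.60, 7.09 and 9.55 in control and 6.32, 8.62, 6.49, 8.71 and 4.12 in treated cows, with the same 4 cows highest. ADIPOQ, the hormone adiponectin, read 2.27, 2.45, 2.95, 4.80 and 5.37, and 4.32, 5.30, 3.32, 5.68 and 1.46. The same 4 cows were again highest, and ADIPOQ was well above background in 2 control and 3 treated cows only.

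Deviations of each cow from its group mean were correlated with those of FABP4 over the 10 cows, as 1 of 18 relations for 9 genes at 2 days (two-sided exact permutation within groups, 14400 orderings). At day 0, Pearson's r was 0.921 for CIDEC (exact p = 0.000972, adjusted p = 0.00875; Spearman's rho 0.842, exact p = 0.00458, adjusted p = 0.0519). For ADIPOQ r was 0.859 (exact p = 0.000625, adjusted p = 0.00875; rho 0.842, exact p = 0.00576, adjusted p = 0.0519). For PLIN1, the perilipin of adipocytes, r was 0.88 (exact p = 0.00611, adjusted p = 0.0367; rho 0.77, exact p = 0.0229, adjusted p = 0.138). Without the 2 cows farthest from the median of FABP4, r was 0.829, 0.831 and 0.725. The rank correlations did not pass after adjustment. DGAT2 gave r = -0.442 (exact permutation p = 0.307, rho -0.321), CIDEA -0.306 (exact permutation p = 0.497, rho -0.115) and PLIN2 0.199 (exact permutation p = 0.535, rho 0.358). Without the same 2 cows these were -0.331, 0.409 and 0.053, so the direction for CIDEA rests on those cows. DGAT1 (-0.172), SCD (-0.675) and FASN (0.095) had exact permutation p-values from 0.074 to 0.755, and without those cows r was -0.834, -0.172 and 0.504. At day 14 the 3 genes that passed at day 0 gave 0.401 for CIDEC (exact permutation p = 0.239), 0.213 for ADIPOQ (p = 0.683 by the same permutation) and 0.265 for PLIN1 (exact permutation p = 0.467). By then CIDEC was well above background in 3 control and 2 treated cows, PLIN1 in 1 and 1, and ADIPOQ in 0 and 1. With signals this dim, the day 14 values cannot tell whether the relation with FABP4 was lost. No slide or scan session held enough cows for a value within it.

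**Figure D3:**
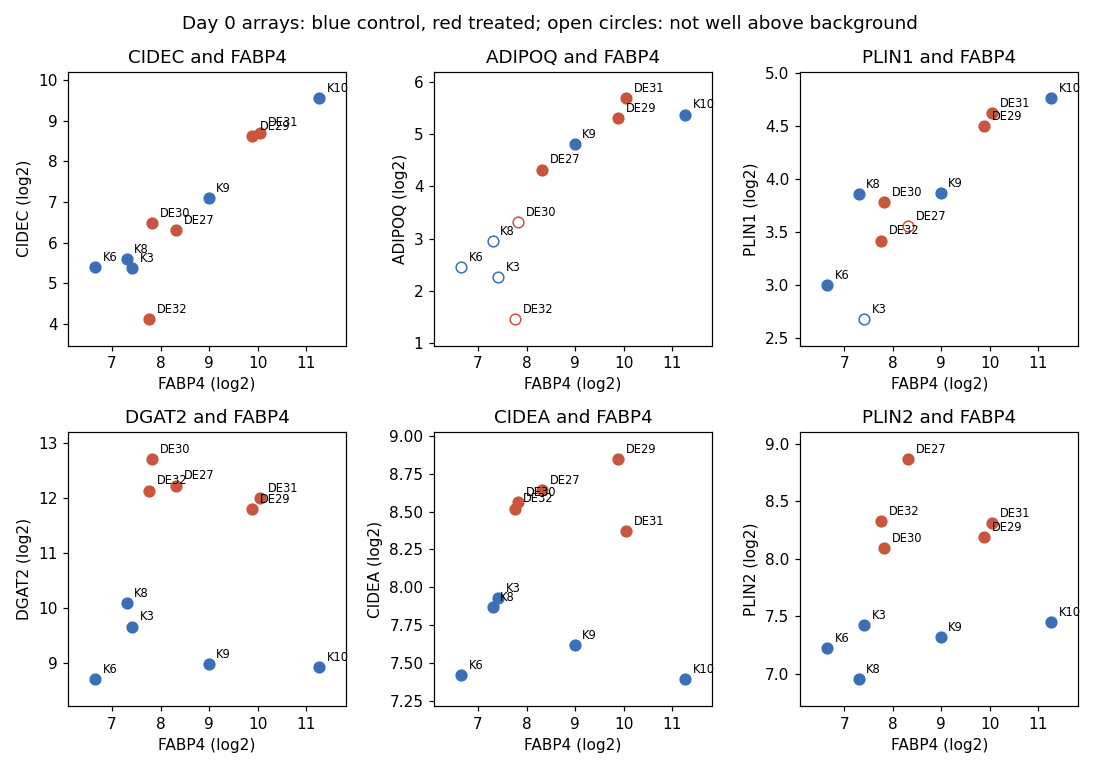
Log2 signal of 6 genes against that of FABP4 in the 10 day 0 samples, with each cow named. CIDEC, ADIPOQ and PLIN1 rise along the FABP4 axis in both treatments. DGAT2, CIDEA and PLIN2 are higher in every treated cow than in any control cow, in the comparison by which the genes were chosen.

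Between the 2 samples of a cow, FABP4 was not stable. In K10 it went from 11.27 to 6.78, and in DE27 from 8.32 to 3.90, where it was no longer well above background. In K8 it went the other way, from 7.30 to 9.43. At day 14 control cows K3, K6, K8, K9 and K10 read 7.19, 7.94, 9.43, 8.85 and 6.78, and treated cows DE27 to DE32 read 3.90, 6.46, 9.44, 9.15 and 8.46. The storage difference of FABP4 was -0.29 ± 0.82 in control and -1.29 ± 0.97 in treated cows (limma adjusted p = 0.804 and 0.338).

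At day 14 the DGAT2 difference between treated and control cows was smaller and much more variable than at day 0. Control cows read 9.01, 7.88, 9.83, 10.65 and 10.64, and treated cows 13.08, 11.54, 12.75, 9.18 and 11.33. DE31 lay below 3 of the controls, and every other treated cow lay above all of them. The difference was 1.98 ± 0.73, or 3.93-fold. Without DE31 it was 2.57, and without K6 it was 1.54. By slide it was 4.44 in slide 2, whose control was K6, 0.32 in slide 4, which held DE31 and K9, and 0.69 in slide 5.

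None of the 10 genes was past the threshold at day 14 in limma, against 0.0713% of all probes, and 2 of the 10 had an unadjusted p under 0.05, against 1613 of 15430 probes. Nothing is read from these counts, since the day 14 arrays enter the mean that helped to choose the genes and so few probes passed. CIDEA read 8.03, 7.21, 8.22, 8.16 and 7.97 in control and 9.03, 8.80, 8.06, 8.05 and 9.16 in treated cows. DE30 and DE31 had fallen among the controls, and the difference was 0.70 ± 0.28 (1.63-fold). PLIN2 read 7.88, 8.01, 8.76, 8.10 and 7.55, against 8.97, 8.68, 8.09, 7.63 and 9.08, with DE29, DE30 and DE31 below the highest control, K8. Its difference was 0.43 ± 0.31. No other list gene passed at day 14, of 73 tested. Fibroblast and preadipocyte markers had a median difference of -0.64 with 0 of 10 past the threshold, and muscle fibre markers one of 0.49 with 0 of 11. Their part in the day 14 values was not tested.

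Over the mean of each cow's arrays, the treatment difference was 2.44 ± 0.42 for DGAT2 (5.42-fold), 0.82 ± 0.19 for CIDEA (1.77-fold) and 0.76 ± 0.18 for PLIN2 (1.69-fold). These 3 of 10 members were among the probes past the threshold, all higher, against 3.32% of all probes in either direction and 1.38% higher. As this comparison also chose the genes, nothing is read from that count. The change of the treatment difference with storage was -0.92 ± 0.84 for DGAT2, -0.24 ± 0.33 for CIDEA and -0.66 ± 0.37 for PLIN2, given without a test. In limma 0% of all probes passed for this change, so none of the 10 genes could stand out, and nothing is read from that count. An unadjusted p under 0.05 was found for 541 of 15430 probes.

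**Figure D4:**
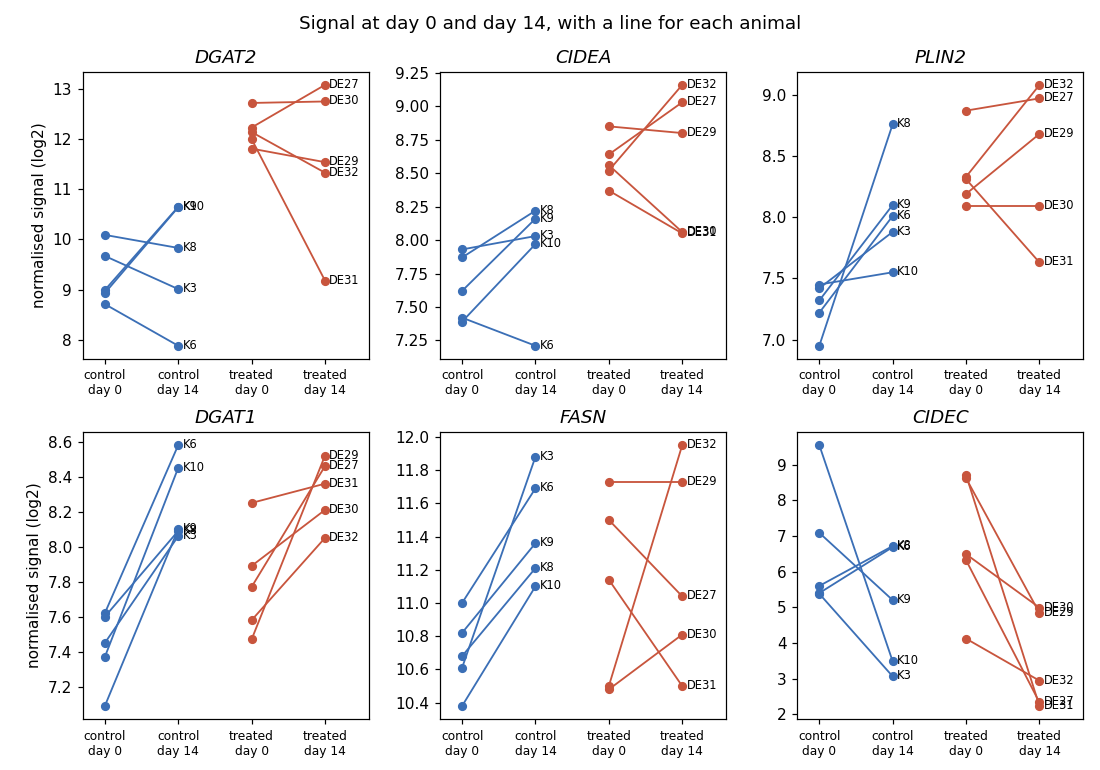
Log2 signal of 6 genes at day 0 and day 14, with a line joining the samples of each cow. DGAT1 rose in all 10 cows, PLIN2 and FASN rose in all 5 control cows, CIDEC fell in all 5 treated cows, and DGAT2 fell by 2.81 in DE31 and rose by 1.66 and 1.71 in K9 and K10.

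With 14 days of storage 3 of the 10 genes rose in control cows: DGAT1, PLIN2 and FASN. This compares with 39.2% of all probes past the threshold, 21.8% higher and 17.3% lower, so that a count of 3 lies near the background. DGAT1 read 8.06, 8.58, 8.09, 8.10 and 8.45 at day 14, all above its day 0 values. The rise was 0.83 ± 0.17, or 1.78-fold (limma adjusted p = 0.00409, higher in 5 of 5 cows). PLIN2 rose by 0.79 ± 0.22, or 1.73-fold (limma adjusted p = 0.0157, 5 of 5 cows). It rose most in K8, from 6.95 to 8.76, and without that cow the change was 0.53 (limma adjusted p = 0.0626). It also missed the threshold without K6 (0.0507) and K9 (0.0647).

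FASN read 10.61, 11.00, 10.68, 10.82 and 10.38 at day 0 and 11.88, 11.69, 11.21, 11.36 and 11.10 at day 14 in control cows. No day 14 value was as low as any day 0 value. The rise was 0.75 ± 0.19, or 1.68-fold (limma adjusted p = 0.0113, 0.052 without K3 and 0.0623 with normexp background correction). A second FASN probe rose by 0.87 ± 0.24 (limma adjusted p = 0.015) and another had 0.60 ± 0.23 (limma adjusted p = 0.0576). These 3 genes were also the members whose control groups did not overlap between days, against 25% of all probes. All 3 calls were lost with the slide as a block (limma adjusted p from 0.115 to 0.233), since slide 6 was the only slide with control arrays of both days. Over the whole array that block left 147 probes higher and 36 lower, so the loss was not particular to these genes. Within slide 6, which made up scan session 3, the differences were 0.71 for DGAT1, 0.87 for PLIN2 and 1.17 for FASN. Its control arrays were K10 at day 0 and K3 and K8 at day 14, so these values compare different cows. In scan sessions 1 and 2 the differences were 1.04 and 0.93 for DGAT1, 0.69 in each for PLIN2, and 0.88 and 0.48 for FASN. Session 1 set K3 and K6 at day 0 against K6 at day 14. Session 2 set K8 and K9 at day 0 against K9 and K10 at day 14.

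In treated cows no member rose past the threshold with storage and 2 fell, CIDEC and PLIN1, against 29.7% of all probes past it, with 18.1% higher and 11.6% lower among them. CIDEC read 6.32, 8.62, 6.49, 8.71 and 4.12 at day 0 and 2.33, 4.84, 4.99, 2.23 and 2.94 after storage. Signal was lower in 5 of 5 cows, by 3.39 on the log2 scale (-3.39 ± 0.88, 10.5-fold, limma adjusted p = 0.0149), and was well above background in 2 of 5 cows at day 14. Without DE31 the change was -2.61 (limma adjusted p = 0.0809), and with normexp it was -0.41 (0.484). The control cows had -1.57 ± 0.94 (limma adjusted p = 0.202) with 3 of 5 lower. Within slide 5, the only slide with treated arrays of both days, CIDEC differed by -1.18 and PLIN1 by 0.34. Both treated arrays of slide 5 came from DE32, so these are the changes of 1 cow. In scan sessions 1 and 2 CIDEC differed by -5.04 and -3.05 and PLIN1 by -1.46 and -0.68. Session 1 set DE29 at day 0 against DE27 and DE29 at day 14. Session 2 held DE30, DE31 and DE32 at both days.

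PLIN1 read 3.56, 4.50, 3.78, 4.62 and 3.42 at day 0 in treated cows and 2.95, 3.11, 3.01, 3.00 and 3.76 at day 14. At day 14 only 1 of these values was well above background. The change was -0.81 ± 0.27, or 1.75-fold lower (limma adjusted p = 0.0452, 0.0835 with the cow as a block). It turned to 1.14 under normexp, and was lost without DE27 (limma adjusted p = 0.0527), DE29 (0.169), DE30 (0.107) or DE31 (0.181). ADIPOQ was -1.20 ± 0.56 in control and -1.19 ± 0.73 in treated cows (limma adjusted p = 0.11 and 0.243). In control cows it was well above background in 2 of 5 at day 0 and in none at day 14. With the day 14 values raised to the background level where below it, the day 14 mean was 1.22-fold lower. That figure carries no sampling error, and the 95% interval of the difference was -2.43 to 0.03. The direction in control cows depended on the scaling, with -1.79 after quantile normalization (limma adjusted p = 0.031) and 0.78 with normexp (0.152). In treated cows normexp gave 0.99 (limma adjusted p = 0.0259) and the slide as a block 0.74, which is the change of DE32 alone.

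DGAT1 read 7.77, 7.47, 7.89, 8.25 and 7.58 and then 8.46, 8.52, 8.21, 8.36 and 8.05 in treated cows. It was higher in 5 of 5 cows by 0.53 ± 0.19 and narrowly missed the threshold (limma adjusted p = 0.0535, and 0.0193 with normexp). PLIN2 had 0.13 ± 0.29 and FASN 0.14 ± 0.34 in treated cows. DGAT2 had 0.32 ± 0.51 with storage in control and -0.60 ± 0.60 in treated cows (limma adjusted p = 0.64 and 0.477). It rose in 2 of 5 cows in each group, so neither direction was shared by the cows. CIDEA had 0.27 ± 0.22 and 0.03 ± 0.25 (limma adjusted p = 0.336 and 0.937).

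The 3 tested SCD probes disagreed on storage. The brightest read 11.11, 11.42, 11.13, 10.77 and 10.04 in control cows at day 0 and 10.84, 11.04, 11.06, 9.54 and 10.89 at day 14. Its change was -0.22 ± 0.33 in control and -0.71 ± 0.32 in treated cows (limma adjusted p = 0.623 and 0.116). A second probe fell, by 1.13 (-1.13 ± 0.36) in control and 1.41 (-1.41 ± 0.34) in treated cows (limma adjusted p = 0.0282 and 0.0106). The third, well above background on 1 or 2 of 5 arrays per group, rose by 1.57 ± 0.38 in control cows (limma adjusted p = 0.00898). The brightest and the second probe, both well above background on all arrays, were below 0 in each treatment, and of these the second alone passed. With the slide as a block the brightest had 0.91 in control cows. That value compares K10 at day 0 with K3 and K8 at day 14 on slide 6. With normexp the brightest passed as lower in treated cows (-0.90, limma adjusted p = 0.00871). It did so over both treatments too (-0.61, limma adjusted p = 0.0159).

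Over all cows, as the average of the storage differences in control and treated cows, DGAT1 rose by 0.68 ± 0.12 (limma adjusted p = 0.000113) in 10 of 10 cows. PLIN2 rose by 0.46 ± 0.18 (limma adjusted p = 0.0413) in 9 of 10. CIDEC fell by 2.48 (-2.48 ± 0.70, limma adjusted p = 0.0055) in 8 of 10 and ADIPOQ by 1.19 (-1.19 ± 0.49, limma adjusted p = 0.0482). These 4 of 10 compare with 54.4% of all probes, 31.3% higher and 23% lower. The PLIN2 call was lost without any 1 of K3, K6, K8, K9, DE29, DE30 and DE32 (limma adjusted p from 0.0501 to 0.138). The ADIPOQ call was lost without any 1 of K8, K9, K10, DE27, DE29 and DE30 (0.0541 to 0.138) and with the scan session as a block (0.052). With normexp CIDEC was at -0.22 (0.657) and ADIPOQ turned to 0.89 (0.013). With quantile normalization and with the authors' series table PLIN2 missed the threshold (0.0888 and 0.0953). With the slide as a block none of the 4 passed, DGAT1 having 0.64 (limma adjusted p = 0.0699). Of all probes that block left 1359 higher and 665 lower, against 4837 and 3551 without it.

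Of the 73 other list genes, 15 rose and 6 fell with storage in control cows, and 6 rose and 7 fell in treated cows. These are 28.8% and 17.8% of the list genes, against 39.2% and 29.7% of all probes. ACACB, the acetyl-CoA carboxylase that makes the inhibitor of mitochondrial fatty acid entry, rose 3.54-fold in control and 3.00-fold in treated cows (limma adjusted p = 0.00333 and 0.000986). ME1, which supplies NADPH for fatty acid synthesis, fell 2.83-fold and 3.68-fold (limma adjusted p = 0.00221 and 0.00445). LIPA, the lysosomal acid lipase, rose 1.46-fold and 1.74-fold (0.0277 and 0.00266 in limma). Of the triglyceride synthesis enzymes, AGPAT4 rose 1.98-fold and AGPAT5 fell 2.94-fold in control cows (limma adjusted p = 0.0043 and 0.00554), and both passed in the same direction in treated cows. In treated cows AGPAT4 missed the threshold without DE29, DE30, DE31 or DE32 (limma adjusted p up to 0.145) and AGPAT5 without DE29, DE31 or DE32 (up to 0.0981), and in control cows LIPA without K6, K8 or K9 (up to 0.125). The ACACB and ME1 calls held without each cow in turn in both treatments, but with the slide as a block none of ACACB, ME1, LIPA, AGPAT4 and AGPAT5 passed in either treatment (limma adjusted p from 0.0513 to 0.347). In treated cows that block left 0 of 15430 probes past the threshold, so no gene could pass. In control cows it left 147 probes higher and 36 lower. ME1 also missed the threshold with normexp (adjusted p = 0.715 and 0.5).

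The direction of storage changes over the whole array depended on the scaling. The median probe moved by 0.09 in control and 0.11 in treated cows, but by 0.46 and 0.48 with normexp. In control cows 3368 probes were higher and 2675 lower, against 2622 and 3013 with quantile normalization and 5164 and 1532 with normexp. In treated cows these counts were 2800 and 1784, 1924 and 2208, and 7122 and 1683. Endothelial markers rose past the threshold with storage in 6 of 8 genes in control and 4 of 8 in treated cows. Of all probes, 21.8% and 18.1% were higher. Fibroblast and preadipocyte markers fell past it in 5 of 10 and 4 of 10, against 17.3% and 11.6% of all probes. The part of these markers in the storage values of the 10 genes was not tested.

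Over the 20 arrays the genes whose signal was most like that of DGAT2, among 9374 bright and named probes, were TMEM120A (Pearson's r = 0.91), COQ10A (0.902), ACOX2 (0.891), RSAD1 (0.885) and ASRGL1 (0.876). Among the members, CIDEA had 0.809, PLIN2 0.611, SCD 0.381, DGAT1 0.182 and FASN 0.005. The arrays share cows in pairs, and differences between the 4 groups are part of these values. For deviations from the 4 group means the leading genes were MRPS18A (0.838), CPT2 (0.831), ACOX2 (0.826), ACOX3 (0.822) and COQ10A (0.813), with CIDEA at 0.526, PLIN2 at 0.249, SCD at 0.276, DGAT1 at -0.033 and FASN at -0.147. CPT2 acts in mitochondrial and ACOX2 and ACOX3 in peroxisomal fatty acid oxidation. Without the 2 arrays farthest from the DGAT2 median, the group-mean deviations of these 5 genes had r between 0.572 and 0.79, and CIDEA had 0.099, PLIN2 -0.166, DGAT1 0.249, SCD 0.205 and FASN -0.546. These are descriptions of the most similar probes, which were picked for their similarity.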

How the data were processed

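Per the file headers, the scans were read with Feature Extraction 9.5.1.1. The analysis starts from the deposited processed signal, an intensity that this software had already corrected for background and spatial trend. Their series table of linear intensities served as an alternative. It followed the processed signal (r on the log2 scale 0.9986 to 0.99996 per array, column medians 98.4 to 165), and its normalization is not given in the sources used here. R 2.11.1 is named in the submitters' processing notes. Signals were set to log2, with 935 outlier spots and 1417 control spots left out, centred on each array's 75th percentile, and spots of a probe were averaged. A probe was tested if well above background on at least 5 of 20 arrays. A gene with several probes is given by the brightest. Names came from the deposited annotation and a table of bovine genes (ARS-UCD2.0, 16510 probes named, 4965 not), and no genome position is given.

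Differences between groups were fitted with limma 3.58.1 (statmod 1.5.0, R 4.3.3), tested on simulated data, with Benjamini-Hochberg adjustment over all tested probes and a threshold of 0.05. Permutations used scipy 1.17.1. Alternatives were other background corrections and normalizations, filters, slide, scan session or cow as a block, and each cow left out. Of these, normexp used an offset of 50. The day and treatment come from titles and characteristics. The description field contradicts these days and was set aside, and a day 0 title with a shortened name was read as cow DE31. The same cow gave both days, so replicate numbers pair the samples. The main storage fits did not use this pairing and treated the arrays as independent, with the cow as a block among the alternatives. Deviations of a cow's 2 arrays from their group means correlated with r from -0.173 to 0.323.

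The day 14 treatment comparison was planned as a test, but its p-values for the members are not given, since the mean over both days helped to choose them. The 10 genes, the gene lists and the rules for named genes were chosen with earlier results of these data known. All 10 members were named whatever their result. Other list genes named are examples among those with the smallest p-value in a list and comparison, and the 5 genes most like DGAT2 were named by correlation.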

Additional observations from a re-analysis of the deposited data

Results flagged for a closer look

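In 40 groups of 5 arrays (10 genes in 4 groups), 3 held a sample whose distance from the nearest other sample exceeded 0.71 of the range of the group. Chance gives about 1 such group in 20. CIDEA in control cow K6 at day 14 was 7.21, with the other control cows at 7.97 to 8.22. SCD in control cow K9 at day 14 was 9.54, with the others at 10.84 to 11.06. PLIN1 in treated cow DE32 at day 14 was 3.76, with the others at 2.95 to 3.11, none of which was well above background.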

How the results depend on the processing

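Over 75 results and 1257 alternative values, 1145 stayed as in the main setting, 52 lost a call or gave a lower count, 16 gained a call or gave a higher count, and 44 of tested results changed sign. Of these 44, 3 belong to results that had passed: PLIN1 with storage in treated cows (1.14 with normexp, 0.34 with the slide as a block) and ADIPOQ with storage over both treatments (0.89 with normexp). The PLIN1 value of 0.34 is the change of DE32 alone. The 1145 include 17 sign changes in values given without a test. The cause was not tested.

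The other sign changes were in results that had not passed. With normexp they were 0.16 for PLIN1, 0.23 for FABP4 and -0.06 for SCD in treatment at day 14, 1.01 for PLIN1 and 0.78 for ADIPOQ with storage in control cows, 0.99 for ADIPOQ and -0.06 for FASN in treated cows, 1.07 for PLIN1 over both, and 0.13 for PLIN1 in the change compared between treatments. With the slide as a block they were -0.07 for DGAT1 in treatment at day 14, 0.91 for SCD with storage in control cows, 0.71 for FABP4 and 0.74 for ADIPOQ in treated cows, and 0.09 for SCD over both. The values of FABP4 and ADIPOQ are the changes of DE32 alone. The SCD value in control cows compares K10 at day 0 with K3 and K8 at day 14. With the scan session as a block they were -0.08 for DGAT1 in treatment at day 14 and -0.02 for CIDEA with storage in treated cows. The authors' series table gave -0.03 for CIDEA there, -0.00 for SCD in treatment at day 14, and -0.63 for ADIPOQ in the change compared between treatments, which was -0.06 with quantile normalization. The mean of its probes gave 0.07 for SCD with storage in control cows.

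With 1 cow left out, treatment at day 14 ranged from -1.04 to 0.34 for FABP4 and from -0.24 to 0.25 for SCD. Storage in control cows ranged from -0.02 to 0.61 for DGAT2, -0.36 to 0.19 for PLIN1, -0.89 to 0.76 for FABP4 and -0.49 to 0.03 for SCD. Storage in treated cows ranged from -0.12 to 0.16 for CIDEA, -0.02 to 0.33 for PLIN2 and -0.19 to 0.33 for FASN. Storage over both ranged from -0.32 to 0.14 for DGAT2, and the change compared between treatments from -0.48 to 0.48 for ADIPOQ. Counts of members called with storage ranged from 2 to 3 in control cows, 0 to 2 in treated cows and 2 to 5 over both. Of 15430 probes, 1773 to 3772 were then higher and 1448 to 2880 lower in control cows. In treated cows 1586 to 3337 were higher and 847 to 2366 lower, and over both 4140 to 5116 and 3112 to 3855. The whole array moved too, so nothing about the members is read from these counts.

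The slide as a block left 0 members called for storage in control cows (main count 3), in treated cows (2) and over both (4). Most calls of the whole array were lost too. Of 15430 probes, that block left 147 higher and 36 lower in control cows, 0 in treated cows, and 1359 higher and 665 lower over both. The lost calls are therefore not particular to the members. In treated cows the count was 4 with normexp, where 7122 of all probes were higher and 1683 lower. These were DGAT1 (0.58), PLIN1 (1.14) and ADIPOQ (0.99), all higher, and SCD (-0.90), lower. Neither main call, CIDEC or PLIN1 lower, was kept in its direction. The count was 1 with the authors' series table (1757 probes higher and 2181 lower). It was also 1 among the 6 members well above background on all arrays (2003 and 1523 of 11399 probes). Over both treatments that filter gave 2 (3521 and 2942 probes). With the cow as a replicate block, the count in treated cows was 1, since PLIN1 missed the threshold (adjusted p = 0.0835 in limma). The block changed no other call for the members. Treatment over both days was not fitted with slide or scan session as a block. Each value there is a mean over a cow's arrays, which came from different slides for every cow but DE32.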
